A study of Mus musculus with 248 samples.

Results

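The RNA of blood from 6 mice with leukemia was compared with that of the same animals before the leukemia oncogene was switched on. The members are the 6 validation libraries labelled L and the T0 library of each of those mice, 12 libraries in 6 pairs, of 248 libraries in the series, and every gene of the validation table was read (13607 genes). All 6 mice (numbers 2684, 2718 and 2719, labelled male, and 2690, 2708 and 2731, labelled female) were C57BL/6, of the genotype labelled CHW, and belonged to the arm CM, a conditional knock-in (Cbfb+/56M with Mx1-Cre). They were induced at 4 to 8 weeks of age with poly(I:C), 14 mg/kg every other day for 7 doses. T0 was taken before those injections, and L in leukemia, which the labels describe as over 20% cKit-positive blasts. The month of L is not given in the sources used here, and the last monthly library of a mouse before L was at month 2 in 2731, month 3 in 2690, 2708 and 2719, month 4 in 2684 and month 5 in 2718. Blood of 6 control littermates (arm Ctrl, given the same injections) at T0 and 1 month later (T1) served as reference. Of these, 1 was labelled WT (wild type), 3 CW and 2 HW, and none carried both alleles. The labels name the tissue PBMC, and total RNA was sequenced in bulk. Mx1-Cre answers to interferon and is active in other organs besides the blood-forming cells, so the fusion was not limited to 1 cell type.

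The fusion joins Cbfb, the partner subunit of the RUNX factors, to the tail of a smooth muscle myosin heavy chain, as inversion 16 does in human acute myeloid leukemia. It holds back the RUNX program of blood differentiation, and the blasts that grow out are immature myeloid cells that carry Kit, the receptor for stem cell factor. Kit is also the growth factor receptor of mast cells, and GATA2 is a factor of stem cells, mast cells and early red cell progenitors alike. Blood in health is instead made of lymphocytes, neutrophils, monocytes, platelets and red cells.

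Levels are log2 CPM, the reads of a gene scaled to the depth of its library, on a log2 scale, so a change of 1 is a 2-fold difference. Changes are L minus the T0 of the same mouse, given as the mean over 6 pairs ± its standard error, and a gene is called, or said to have risen or fallen, at a Benjamini-Hochberg adjusted p under 0.05 in limma. A single gene's levels are given as the lowest, the median and the highest of the 6 mice. Libraries held 17.4 to 21.3 M reads at T0 and 20.3 to 34.4 M reads in L, counted on the genes of the validation table. From 83 to 193 genes had 0 reads in an L library, except in L of mouse 2718, where 669 had. The 6 T0 libraries resembled each other more (Spearman correlation across genes 0.97 to 0.993) than the 6 L libraries did (0.909 to 0.975), and the median SD of a gene over mice was 0.218 at T0 and 0.468 in L. All L libraries carried 1 batch label and all T0 libraries another, both prepared without strand, so that the batch and the age of the mice cannot be told apart from leukemia. Mouse 2731, labelled female, had low Xist, the transcript of the inactive X, in both libraries (1.24 at T0 and -1.18 in L). The other 2 females had 9.33 and 9.72 at T0 and 10.0 in L. The Y-linked Ddx3y of mouse 2731 stood at 5.21 at T0 but at -3.46 in L, so that only T0 held a male transcript. At T1 and T2 of this mouse Ddx3y stood at -2.35 and -4.29, and Xist at 6.34 and 2.08. T0 of mouse 2718, labelled male, held Xist at 5.7 beside Ddx3y at 7.7, and T0 of Ctrl mouse 2705, also male, held it at 5.82. Values without 2731 or 2718 are given where they change a call, or change a count by over 1.5 times.

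Most genes of the table moved. Of 13607 genes 4278 rose (31.4%) and 4494 fell (33%), 8772 in all (64.5%). With a change beyond 1 on the log2 scale as a further condition, 2246 rose (16.5%) and 3511 fell (25.8%). All 6 L libraries were above all 6 T0 libraries for 3120 genes (22.9%) and below them for 2846 (20.9%). The median change of all genes was -0.04, and 251 genes rose and 230 fell by more than 5. Without mice 2718 and 2731 together 4108 genes rose and 4131 fell. The counts of list genes given from here on stand beside these background shares. In bulk RNA, fewer cells of a type and less RNA per cell cannot be told apart.

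**Figure D1:**
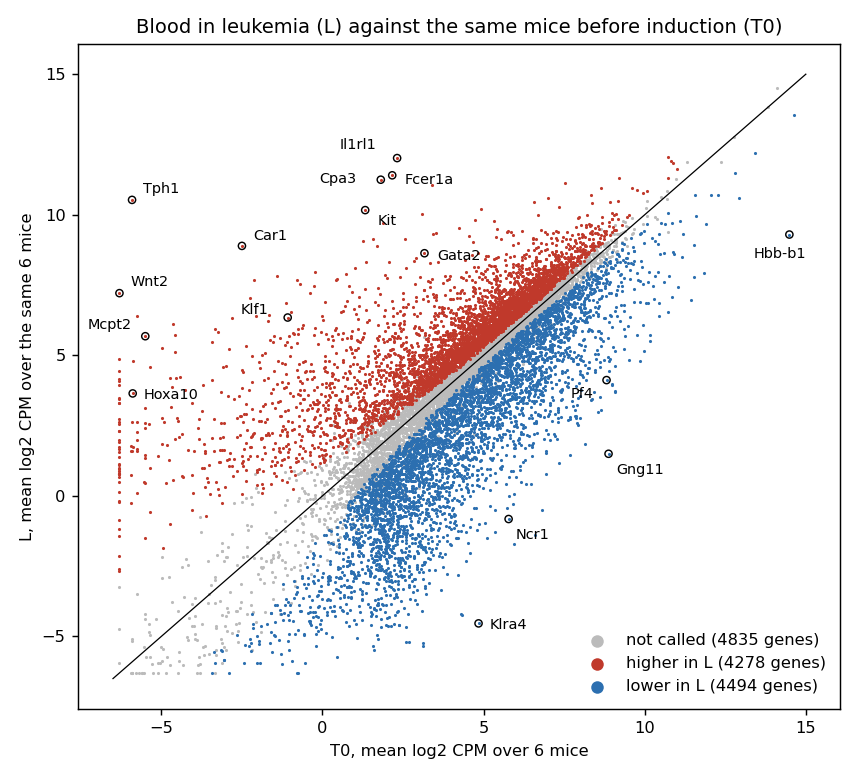
Each point is 1 of 13607 genes, with its mean log2 CPM over the 6 mice at T0 (x axis) and in L (y axis), and the line marks equal levels. Red points rose (4278), blue points fell (4494) and grey points were not called. Tph1, Wnt2, Il1rl1, Cpa3, Fcer1a and Kit lie far above the line, and Klra4, Gng11 and Ncr1 far below it.

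The blasts' own receptor was among the largest increases. Because the labels describe L by over 20% cKit-positive blasts, a rise of Kit was built into the choice of libraries. Its adjusted p is therefore a description. Kit (ENSMUSG00000005672, chromosome 5, 75574987 to 75656722 on GRCm38.p6, protein coding) stood at 0.85, 1.37 and 1.82 log2 CPM at T0 and at 8.22, 10.30 and 11.44 in L. The groups were far apart, with mouse 2684 the lowest in L and mouse 2718 the highest. The change of 8.84 ± 0.38 (adjusted p = 1.11e-06) rested on 291 reads over the 6 T0 libraries and 204191 over the 6 L libraries. Csf2rb2, a beta chain of the interleukin 3 receptor, rose by 5.82 ± 0.13 (adjusted p = 7.13e-08), from 2.97, 3.52 and 4.18 to 9.04, 9.19 and 10.25, with little spread between mice. Cd34, a sialomucin of progenitors, rose by 5.28 ± 0.88 (adjusted p = 0.000989), but its L levels of -0.09, 4.85 and 6.83 overlapped the T0 levels of -1.53, -0.81 and 0.14. Tek, the angiopoietin receptor of stem cells and endothelium, rose by 6.88 ± 0.76 (adjusted p = 0.00011). Surface genes of stem and progenitor cells did not move as 1 group: of 23 measured, 9 rose and 11 fell, with a median of -0.70 against -0.04 over all genes. Among those that fell was Csf3r, the receptor for G-CSF, at -3.53 ± 0.47 (adjusted p = 0.000288).

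Transcription factors of progenitors moved upward more uniformly. Of 28 measured, 21 rose and 3 fell, and the median change was 2.39, from 1.98 in mouse 2708 to 3.0 in mouse 2731. Gata2 rose by 5.46 ± 0.17 (adjusted p = 3.95e-07), from 2.66, 3.23 and 3.53 at T0 to 8.04, 8.74 and 8.96 in L, and every L library was above every T0 library. Erg, an ETS factor of stem cells, rose by 6.71 ± 0.25 (adjusted p = 6.48e-07), from -1.49, -0.81 and -0.33 to 5.38, 5.81 and 6.41. Of the HoxA cluster, Hoxa7 rose by 6.95 ± 0.39 (adjusted p = 4.08e-06) and was higher in each L library than in any at T0. Hoxa9 rose by 7.36 ± 0.80 (adjusted p = 0.000105), with levels of -6.30, -3.92 and -2.97 at T0 and -3.32, 4.80 and 5.33 in L that overlapped. Hoxa10 had 1 read over the 6 T0 libraries and 4144 over the 6 L libraries, a ratio of pooled CPM of 2960 with an exact 95% counting interval of 530 to 117000. Neighbouring HoxA genes overlap, and with a preparation that does not mark strand their reads, like those of any antisense pair, cannot be told apart by strand. Some factors did not pass: Spi1, the myeloid factor PU.1, changed by -0.46 ± 0.20 (adjusted p = 0.0692) and Mecom by 0.34 ± 1.16 (adjusted p = 0.811). Spi1 passed without 2690 or 2719 (adjusted p = 0.0286 and 0.0444), under median-ratio scaling and under quantile normalization (0.0384 and 0.0123), lower in each.

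The 2 genes named for parts of the fusion rose by less. Cbfb (ENSMUSG00000031885, chromosome 8, 105170674 to 105217989) stood at 6.98, 7.13 and 7.21 at T0 and 8.06, 8.27 and 8.48 in L, a change of 1.15 ± 0.10 (adjusted p = 2.93e-05), and reads of the fused and the normal allele are counted together. The table lists a transcript MHY11 without an identifier, which stood at 3.52, 3.92 and 4.02 at T0, before induction, and at 4.68, 4.86 and 5.39 in L, a change of 1.12 ± 0.14 (adjusted p = 0.000233). All 6 L libraries were above all T0 libraries for both. Whether the MHY11 reads come from the recombined fusion was not tested. Of the RUNX factors that pair with Cbfb, Runx1 rose by 2.49 ± 0.10 (adjusted p = 1.07e-06) from 6.23, 6.70 and 6.87 to 8.80, 9.16 and 9.25 and Runx2 by 2.28 ± 0.21 (adjusted p = 4.14e-05), while Runx3, the member of lymphocytes, changed by -0.18 ± 0.24 (adjusted p = 0.542).

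The mast cell and basophil list had the largest median of the 35 lists. Of 21 genes measured, 16 rose and 1 fell (2 without 2690), with a median change of 6.93 (7.64 with the 3 members at 0 reads at T0 set to a floor of 3 reads over the group). For 16 of the 21 every L library was above every T0 library. Members near 0 reads at T0, such as Tph1, Mcpt4 and Il13, could pass the filter of the deposited values only through libraries other than these T0. Their rise and lack of overlap are therefore descriptions. The summed level of the list went from 339 to 454 CPM at T0 to between 10100 and 29300 CPM in L. For the choice of start regions only, members were limited to a mean above 1 log2 CPM at T0. This leaves out Tph1, Mcpt2, Mcpt1 and Mcpt4 (T0 means -5.91, -5.50, -4.63 and -6.3), whose increases were larger. The start regions of the 3 remaining members with the largest increases are shown here. Each runs 5′ to 3′ on the gene's strand, from 250 bases before to 50 after the RefSeq start on GRCm38.p6, with GATAA or its reverse complement TTATC (the core that GATA factors bind) and TGTGGT or ACCACA (the core that RUNX factors bind) in capitals. No motif was searched beyond these.
Cpa3, chr3:20242132-20242431, minus strand: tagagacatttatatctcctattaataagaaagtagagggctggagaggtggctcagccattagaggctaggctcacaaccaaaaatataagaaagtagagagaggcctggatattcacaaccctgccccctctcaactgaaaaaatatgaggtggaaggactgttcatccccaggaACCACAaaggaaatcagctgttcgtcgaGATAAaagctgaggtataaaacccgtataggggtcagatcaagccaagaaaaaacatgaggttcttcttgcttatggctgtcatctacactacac
Fcer1a, chr1:173227180-173227479, minus strand: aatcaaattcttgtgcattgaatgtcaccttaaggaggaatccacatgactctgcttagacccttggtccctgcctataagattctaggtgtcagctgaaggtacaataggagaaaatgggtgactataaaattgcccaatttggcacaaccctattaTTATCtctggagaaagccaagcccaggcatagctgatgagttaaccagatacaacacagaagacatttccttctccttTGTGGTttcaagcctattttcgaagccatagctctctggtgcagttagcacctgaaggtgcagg
Il1rl1, chr1:40429320-40429619, plus strand, the first of 2 starts: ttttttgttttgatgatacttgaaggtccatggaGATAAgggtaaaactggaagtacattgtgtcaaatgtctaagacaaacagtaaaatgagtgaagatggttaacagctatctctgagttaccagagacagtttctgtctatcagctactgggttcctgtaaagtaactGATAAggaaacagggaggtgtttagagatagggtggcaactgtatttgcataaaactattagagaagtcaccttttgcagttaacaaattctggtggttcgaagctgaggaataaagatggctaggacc

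The Cpa3 and Fcer1a windows each hold 1 match to GATAA and 1 to TGTGGT. The Il1rl1 window shown holds 2 to GATAA, and its second window holds 1 to GATAA and 1 to TGTGGT. Other top genes differ: Ackr1, Ces2g and Slc45a3 have a window with GATAA and Atp8b5 one with TGTGGT, while both windows of Kit hold 0 matches to GATAA and 0 to TGTGGT. Of the 2 windows of Tph1, the largest increase of the list, 0 hold GATAA and 1 holds TGTGGT. Of all 32851 promoters of that table, 25.4% hold GATAA and 16.8% hold TGTGGT on either strand. The 15 genes with the largest increases include 12 with promoters in the table, 17 windows in all, of which 7 hold GATAA and 5 hold TGTGGT. A match of letters is a description and not a binding site.

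Il1rl1 (ENSMUSG00000026069, chromosome 1, 40404864 to 40465418), the receptor for interleukin 33 on mast cells and basophils, stood at 2.09, 2.32 and 2.59 at T0 and 11.70, 11.81 and 12.91 in L. Its change of 9.70 ± 0.16 (adjusted p = 1.08e-08) was large and even over the mice. Cpa3 (ENSMUSG00000001865, chromosome 3, 20215616 to 20242209), the carboxypeptidase of mast cell granules, rose from 1.46, 1.76 and 2.25 to 8.50, 11.62 and 12.49, by 9.44 ± 0.46 (adjusted p = 2.08e-06). Mouse 2684 was the lowest in L for Cpa3 and the other 5 lay close together. Fcer1a (ENSMUSG00000005339, chromosome 1, 173221269 to 173227232), the IgE-binding chain of the high-affinity IgE receptor, rose from 1.84, 2.13 and 2.71 to 10.67, 11.59 and 12.09, by 9.24 ± 0.22 (adjusted p = 7.4e-08).

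Tph1 (ENSMUSG00000040046, chromosome 7, 46644641 to 46672537), the rate-limiting enzyme of serotonin synthesis outside the brain, had 1 read over the 6 T0 libraries and 341550 over the 6 L libraries. The ratio of pooled CPM was 244000, with an exact 95% counting interval of 43700 to 9620000, and the L levels were 6.95, 11.34 and 11.85. The mast cell proteases followed: Mcpt4 had 0 reads at T0 and 8446 in L, at least 2010-fold higher with a floor of 3 reads over the T0 group. Mcpt2 had 2 and 37275 reads, a ratio of 13300 (3680 to 110000), and Mcpt1 had 8 and 27551. In the same mice Mcpt1 was already high at T1, also without strand: 6.55, 7.62 and 9.16, against 4.42, 5.43 and 9.59 in L. Mcpt2 stood at 3.28, 4.38 and 6.40 at T1 and at 3.22, 5.04 and 10.27 in L. Mcpt4 was still low at T1, with a median of -1.37 against 4.17 in L. Mcpt1, Mcpt2 and Mcpt4 belong to a cluster of like genes, so the split of reads between them is uncertain. The type 2 cytokines Il4 and Il13 rose by 5.54 ± 0.30 (adjusted p = 3.56e-06) and 8.02 ± 0.79 (adjusted p = 6.11e-05), and the eotaxin gene Ccl24 by 6.47 ± 0.60 (adjusted p = 4.5e-05). Cytokine genes as a list mostly went the other way: of 18 measured, 10 fell and 6 rose, with a median of -1.34. Mcpt8, the protease that marks mouse basophils, did not pass at 1.11 ± 0.76 (adjusted p = 0.226), with L levels of 0.53, 1.30 and 5.30 against 0.93, 1.46 and 1.68 at T0, and neither did the steroid enzyme Cyp11a1 at 2.51 ± 0.99 (adjusted p = 0.0521). With voom on whole reads both passed, Mcpt8 at an adjusted p of 0.0357 and Cyp11a1 at 0.00126. Under quantile normalization both passed too (adjusted p = 0.0235 and 0.0325). Cyp11a1 also passed at 3.645 without mouse 2684 (adjusted p = 0.00105) and with a prior of 2 reads (0.0477).

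Outside the lists, large increases included those of enzymes and of a transporter. Car1, a carbonic anhydrase, rose by 11.39 ± 0.53 (adjusted p = 1.67e-06), from -3.97, -2.23 and -0.81 to 8.13, 8.99 and 9.63. Slc45a3, a membrane transporter, rose by 9.79 ± 0.30 (adjusted p = 3.03e-07), Rab38, a small GTPase of lysosome-related organelles, by 9.22 ± 0.39 (adjusted p = 1.11e-06) and Ackr1, a decoy chemokine receptor, by 9.16 ± 0.76 (adjusted p = 2.65e-05). Each was above all T0 libraries in all 6 L libraries. Ces2g, a carboxylesterase, rose by 8.49 ± 0.49, Car8, a carbonic anhydrase relative, by 8.46 ± 0.35, and Epdr1, an ependymin relative, by 9.27 ± 0.62 (adjusted p = 4.34e-06, 1.07e-06 and 8.9e-06). Wnt2, a secreted Wnt ligand and a member of the Wnt list, had 0 reads in the 6 T0 libraries and 29722 in the 6 L libraries, at least 7070-fold higher, with L levels of 6.26, 7.13 and 8.56. Of 7 Wnt pathway genes measured, 3 rose and 2 fell. Axin2, a feedback target of Wnt signalling, rose by 2.96 ± 0.21 (adjusted p = 1.24e-05). Lef1 and Tcf7, DNA-binding partners of beta-catenin that T cells carry at high levels, fell, with changes of -2.48 ± 0.39 and -1.66 ± 0.37 (adjusted p = 0.000713 and 0.00472). Beta-catenin itself, Ctnnb1, did not pass at 0.22 ± 0.11 (adjusted p = 0.101).

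**Figure D2:**
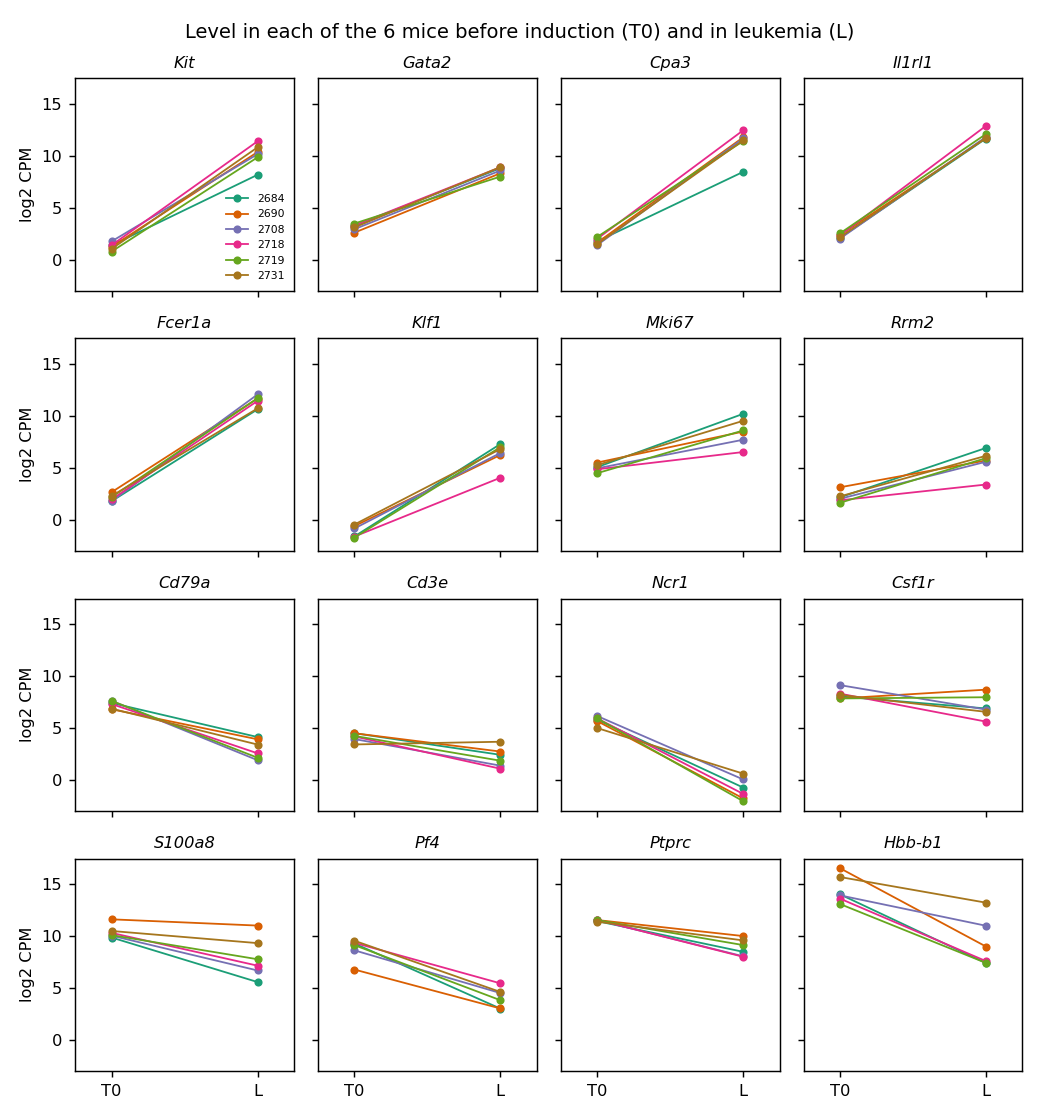
Level in log2 CPM of 16 genes in each of the 6 mice at T0 and in L, with a line joining the 2 libraries of a mouse. Kit, Gata2, Cpa3, Il1rl1 and Fcer1a lie above every T0 level in all 6 L libraries, Ncr1 and Cd79a below, and Csf1r and S100a8 differ between mice.

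Red cell genes split by stage. Of 24 genes for erythroid factors and membrane proteins 16 rose and 4 fell, with a median of 2.42, from 0.97 in mouse 2690 to 3.95 in mouse 2719. Klf1, the master factor of red cell genes, rose by 7.42 ± 0.42 (adjusted p = 4.27e-06), from -1.65, -1.16 and -0.40 to 4.10, 6.66 and 7.33, and Icam4, an adhesion molecule of erythroblasts, by 6.52 ± 0.40 (adjusted p = 6.33e-06). Ermap, an erythroblast membrane protein, rose by 6.04 ± 0.56 (adjusted p = 4.63e-05) and Sox6, a maturation factor, by 5.52 ± 0.47 (adjusted p = 3.14e-05). In each of these 4 genes all L libraries were above all T0 libraries. Slc4a1, the band 3 protein of mature red cells, fell by 2.54 ± 0.77 (adjusted p = 0.0188), with overlapping levels. Its call was lost without a replicate block (adjusted p = 0.0616) and without 2684, 2718 or 2719 (0.0531 to 0.0561).

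Of 12 heme synthesis genes 6 rose and 4 fell. Alas2, the rate-limiting enzyme of the pathway in red cells, fell by 3.60 ± 0.64 (adjusted p = 0.00133), from 9.71, 10.60 and 13.08 to 5.75, 6.75 and 10.60. Of 4 globin genes 3 fell and 0 rose: Hbb-b1 stood at 13.10, 13.99 and 16.54 at T0 and 7.43, 8.32 and 13.24 in L (-5.19 ± 0.67, adjusted p = 0.000255), and Hba-a1 did not pass at -1.33 ± 0.62 (adjusted p = 0.0899). The globin genes are near-identical copies and their split is uncertain. Together they took 1.15 to 12.2% of the reads on genes of the validation table at T0 (median 2.12%) and 0.0386 to 1.66% in L (median 0.12%). The share was lower in L in 6 of 6 mice (exact sign-flip permutation test over pairs, two-sided p = 0.03125, the smallest that 6 pairs allow, and 0.125 after Benjamini-Hochberg adjustment over 4 shares).

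Platelet genes fell with few exceptions. Of 20 genes of platelets and megakaryocytes 16 fell and 2 rose, with a median of -4.05. Gng11, a G protein subunit abundant in platelets, had the largest decrease among genes with a symbol, a mean log2 CPM above 1 over the 12 libraries and a decrease in all 6 mice. It stood at 6.76, 9.29 and 9.87 at T0 and 0.33, 1.68 and 2.07 in L, a change of -7.38 ± 0.24 (adjusted p = 3.96e-07). Pf4, platelet factor 4, fell by 4.70 ± 0.32 (adjusted p = 9.65e-06), Gp6, the collagen receptor, fell by 5.32 ± 0.37 (adjusted p = 1.08e-05), Clec1b, the podoplanin receptor, fell by 5.31 ± 0.36 (adjusted p = 9.79e-06) and Nrgn, a calmodulin-binding protein, fell by 6.15 ± 0.28 (adjusted p = 1.62e-06). For each of these every L library was below every T0 library. The 2 that rose were F2r and Gp1ba. F2r, a thrombin receptor, rose from 4.03, 4.23 and 4.46 to 8.81, 9.61 and 10.20, by 5.31 ± 0.18 (adjusted p = 4.98e-07). Gp1ba, a chain of the von Willebrand factor receptor that was named after its values were seen, rose by 0.92 ± 0.275 (adjusted p = 0.0171), and Gp5 did not pass at 0.10 ± 0.48 (adjusted p = 0.874).

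Most members of the list for early neutrophil granules rose, and those of the list for later granules moved unevenly. Of 10 genes in the list for primary granules, which promyelocytes make, 7 rose and 2 fell (median 2.10). The list also holds genes that are not limited to these granules: Calr, Clec11a, Cd63 and Srgn are among those that rose, and Nkg7 among those that fell. Mpo, myeloperoxidase, rose by 5.73 ± 0.88 (adjusted p = 0.000629), yet its L levels of -0.15, 2.44 and 4.80 stayed low, with 17 reads at T0 and 1572 in L in all. Ctsg, cathepsin G, rose by 4.44 ± 0.72 (adjusted p = 0.00088) and Prtn3, proteinase 3, by 3.55 ± 0.58 (adjusted p = 0.000884). Both were above all T0 libraries in every L library. Fcnb, a ficolin, did not pass at 1.88 ± 1.51 (adjusted p = 0.303), but passed at 3.35 without mouse 2718 (0.0371) and at 3.44 under quantile normalization (0.0197). Of 14 later granule genes 2 rose and 5 fell: Chil3 at 2.67 ± 0.47 (adjusted p = 0.00128) and Ngp at 2.51 ± 0.59 (adjusted p = 0.00598) rose, and Mmp9, gelatinase B, fell by 2.66 ± 0.51 (adjusted p = 0.00209). Under quantile normalization 5 of these 14 rose, with voom 4 rose, and without 2718 and 2731 together 2 fell. The list's median ran from -2.33 in mouse 2684 to 1.92 in mouse 2690, and the lists of early and later granules were not tested against each other.

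Of 20 mature neutrophil genes 15 fell and 1 rose (median -2.47), and without 2684 2 rose. S100a8, a calcium-binding alarmin of neutrophils, stood at 9.89, 10.22 and 11.64 at T0 and 5.61, 7.49 and 11.04 in L (-2.48 ± 0.45, adjusted p = 0.00157), and Ly6g, which marks mature neutrophils, at 2.17, 2.77 and 4.56 and -0.82, -0.07 and 4.24 (-2.37 ± 0.45, adjusted p = 0.00199). Both overlapped between the groups. The T0 values show neutrophil transcripts in blood whose label is PBMC, a fraction that usually holds few neutrophils. Il1b, interleukin 1 beta, fell by 5.06 ± 0.48 (adjusted p = 5.42e-05). Of 4 eosinophil genes measured, 4 fell, among them Il5ra, the interleukin 5 receptor, at -3.69 ± 0.33 (adjusted p = 3.65e-05). Alox15, a lipoxygenase, had 379 reads at T0 and 7 in L (-6.84 ± 0.74, adjusted p = 0.000104). Epx, the eosinophil peroxidase fixed as their defining marker, is not among the genes of the table used here.

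Monocyte genes fell less evenly. Of 20 genes 13 fell and 2 rose (median -1.54), and without mice 2718 and 2731 together 8 fell and 1 rose. Leaving out 2684, 2690, 2719 or 2731 alone also gave 1 that rose. Csf1r, the receptor of macrophage colony-stimulating factor, stood at 7.87, 8.14 and 9.15 at T0 and 5.65, 6.86 and 8.72 in L (-1.14 ± 0.45, adjusted p = 0.0498). Its call was lost without any of 2684, 2708, 2718 and 2731 (adjusted p = 0.0928 to 0.142). With all 6 mice it was also lost with no intensity trend (0.0796) and with only genes of a mean log2 CPM above 1 (0.0533). Cx3cr1, the fractalkine receptor of patrolling monocytes, fell by 2.64 ± 0.36 (adjusted p = 0.000352), and Ccr2, the receptor of classical monocytes, did not pass at -0.34 ± 0.35 (adjusted p = 0.418). Of 14 dendritic cell genes 12 fell and 0 rose, such as Siglech of plasmacytoid cells at -5.48 ± 0.74 (adjusted p = 0.000319) and the factor Irf8 at -4.07 ± 0.38 (adjusted p = 4.44e-05). All 11 genes of MHC class II antigen presentation fell, with a median of -3.77, and every L library was below every T0 library in all 11. H2-Ob, a regulator of peptide loading, went from 8.68, 9.09 and 9.35 to 4.12, 4.45 and 5.48 (-4.45 ± 0.23, adjusted p = 2.78e-06). H2-Eb1, a beta chain, fell by 3.87 ± 0.31 (adjusted p = 2.35e-05).

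Lymphocyte genes fell as groups. All 19 B cell genes in the table fell, with a median of -4.73, and in all 19 the L libraries lay below the T0 libraries. Cd79a, a chain of the B cell receptor complex, stood at 6.83, 7.39 and 7.65 at T0 and 1.94, 3.03 and 4.17 in L (-4.25 ± 0.39, adjusted p = 4.59e-05). Tnfrsf13c, the BAFF receptor, fell by 5.32 ± 0.33 (adjusted p = 6.49e-06) and Vpreb3 fell by 5.85 ± 0.60 (adjusted p = 7.49e-05). The summed level of the list went from between 6300 and 11300 CPM to between 188 and 827 CPM.

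Of 20 T cell genes 19 fell and 1 rose (median -2.26). Cd3e, a chain of the T cell receptor complex, stood at 3.46, 4.25 and 4.54 at T0 and 1.13, 2.18 and 3.71 in L (-1.93 ± 0.40, adjusted p = 0.00314). Its groups overlapped, and mouse 2731 went from 3.46 to 3.71. Cd4 fell by 2.77 ± 0.34 (adjusted p = 0.000204), the kinase Lck fell by 2.77 ± 0.32 (adjusted p = 0.000132) and Ccr7, the homing receptor of naive cells, fell by 3.64 ± 0.19 (adjusted p = 2.8e-06). The list's median was -0.31 in mouse 2731 and -2.87 to -2.34 in the other 5. Of 17 genes of NK and other cytotoxic cells 16 fell, with a median of -4.22, and 0 rose (1 without 2684). Ncr1, the natural cytotoxicity receptor, went from 5.03, 5.89 and 6.19 to -2.0, -0.99 and 0.65 (-6.60 ± 0.45, adjusted p = 9.53e-06). The NK cell receptors Klra4 and Klra8, of a family of near-identical genes, fell, with changes of -9.38 ± 0.54 and -8.50 ± 0.62 (adjusted p = 4.27e-06 and 1.35e-05). Gzmb, granzyme B, did not pass at 1.19 ± 0.74 (adjusted p = 0.191), with L levels of 1.91, 6.55 and 8.59. It passed at 1.94 without mouse 2684 (adjusted p = 0.0164) and at 1.71 with voom (0.0373). Ptprc, the CD45 antigen of all leukocytes, fell as well, from 11.41, 11.56 and 11.59 to 8.04, 8.84 and 10.03 (-2.62 ± 0.29, adjusted p = 0.000119).

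All 19 interferon response genes in the table fell (median -3.33). Ifit3 fell by 5.54 ± 0.40 (adjusted p = 1.34e-05) with no overlap, and Rsad2, the antiviral protein viperin, fell by 4.99 ± 0.67 (adjusted p = 0.000304), from 7.65, 8.65 and 10.58 to 1.57, 3.39 and 8.66 with overlap. The 2 genes differed at T1 of these mice, also without strand: Rsad2 stood at 10.09, 11.55 and 11.65, a higher median than at T0, and Ifit3 at 3.46, 3.78 and 4.25. Of 14 chemokine receptor genes 11 fell and 0 rose, with Cxcr5, the follicle receptor of B cells, at -3.50 ± 0.25 (adjusted p = 1.29e-05). Among 12 immune checkpoint genes 5 rose and 5 fell: Havcr2, which codes for TIM-3, rose from 3.47, 3.90 and 4.67 to 6.89, 7.36 and 7.88 (3.35 ± 0.18, adjusted p = 3.63e-06), and Cd200 fell by 4.55 ± 0.31 (adjusted p = 9.4e-06).

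Genes of dividing cells rose. Of 22 mitosis genes 21 rose and 0 fell, with a median of 3.10, and of 25 DNA replication genes 21 rose and 0 fell (1 without 2690 or 2731), with a median of 1.86. Mki67, the Ki-67 antigen, stood at 4.53, 5.06 and 5.55 at T0 and 6.56, 8.58 and 10.23 in L (3.47 ± 0.40, adjusted p = 0.000143). Mouse 2718 was the lowest in L and mouse 2684 the highest, and all L libraries were above all T0 libraries. Cdk1, the mitotic kinase, rose by 4.67 ± 0.51 (adjusted p = 0.000104), cyclin B1, Ccnb1, by 4.48 ± 0.43 (adjusted p = 5.58e-05) and Rrm2, a subunit of ribonucleotide reductase, by 3.43 ± 0.40 (adjusted p = 0.000146). Mcm10, of the replication fork, rose by 3.67 ± 0.52 (adjusted p = 0.000417), and Ccne1, cyclin E1, did not pass at -1.12 ± 0.63 (adjusted p = 0.146) but passed at -1.62 without mouse 2731 (0.0452). Of 43 replication-dependent histone genes 19 rose and 5 fell, while without mouse 2718 29 rose and without mouse 2708 3 fell. H3c2 rose by 4.47 ± 0.81 (adjusted p = 0.00154), with -0.23 in L of mouse 2718 and 0.06 in its T0 library. The histone genes are near-identical copies.

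Growth and energy genes moved by less. Of 19 ribosome biogenesis genes 9 rose and 0 fell (median 0.33), such as Npm1, nucleophosmin, at 1.03 ± 0.10 (adjusted p = 6e-05) and Gnl3, nucleostemin, at 1.28 ± 0.11 (adjusted p = 3.32e-05). Of 73 ribosomal protein genes 10 rose and 32 fell (median -0.44), with Rps27 at -2.54 ± 0.17 (adjusted p = 1.01e-05) and Rps26 at 1.77 ± 0.11 (adjusted p = 7.42e-06) at the ends. These genes have many processed copies in the genome, so their counts are uncertain. Of 78 oxidative phosphorylation genes 40 rose and 5 fell (median 0.45; 3 fell without 2684 or 2731), Ndufv2 of complex I by 1.44 ± 0.09 (adjusted p = 8.09e-06), while Cox7c of complex IV fell by 1.25 ± 0.17 (adjusted p = 0.000354). Of 17 glycolysis genes 10 rose and 1 fell (2 without 2690). Pfkm, the muscle form of phosphofructokinase, rose by 3.59 ± 0.24 (adjusted p = 8.84e-06) and the hexokinase Hk1 by 2.37 ± 0.12 (adjusted p = 2.81e-06), and Hk3, the hexokinase of myeloid cells, fell by 2.43 ± 0.53 (adjusted p = 0.004).

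Of 12 genes of p53 and its targets 8 rose and 1 fell (median 1.24). Perp, an apoptosis effector, rose by 3.57 ± 0.37 (adjusted p = 7.77e-05) and Cdkn1a, the cell cycle inhibitor p21, by 2.71 ± 0.31 (adjusted p = 0.000137), whereas Mdm2, the ligase that degrades p53, did not pass at -0.07 ± 0.09 (adjusted p = 0.535), but was lower under quantile normalization (-0.23, 0.0416). Of 12 Bcl2 family genes 6 rose and 5 fell: Bbc3, the death effector PUMA, rose by 1.77 ± 0.17 (adjusted p = 5.45e-05) and the survival gene Bcl2l1 fell by 1.64 ± 0.28 (adjusted p = 0.00123). Of 20 epigenetic regulators 6 rose and 5 fell, and 3 fell without 2690, 2718 or 2719 and with no intensity trend, with the DNA methyltransferase Dnmt1 at 1.89 ± 0.14 (adjusted p = 1.29e-05) and the dioxygenase Tet1 at -3.03 ± 0.63 (adjusted p = 0.00304). Of 11 heat shock genes 5 rose and 2 fell, while 0 fell without 2708, 1 fell without 2690, 2718 or 2731, and 3 fell without 2719.

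The leukemias differed among themselves. Mouse 2684 had the lowest Kit in L (8.22) and the smallest median of the mast cell list (5.55), together with the highest Mki67 (10.23) and the largest median of the mitosis list (4.67). Mouse 2718 stood at the other end, with the highest Kit (11.44), the lowest Mki67 (6.56), a mitosis median of 0.98 and a histone median of -1.53, and it is also the library with 669 genes at 0 reads. Mouse 2690 kept the most of the mature myeloid genes: its monocyte median was 0.40 against -2.65 to -0.17 in the other 5, and its mature neutrophil median was -0.69 against -4.03 to -1.58. Mouse 2731 kept the most T cell transcripts. Its Xist was low for the female label in T0 and in L, while only T0 held Ddx3y (5.21, against -3.46 in L). Ddx3y was low at T1 and T2 of this mouse as well (-2.35 and -4.29). Whether the T0 and L libraries come from the same animal was not tested beyond those genes. Without 2731, 4532 genes fell and 3927 rose.

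Some genes changed by nearly the same amount in all mice. Among called genes with a change beyond 2, those with the smallest SD over mice included Gnb4, a G protein subunit, which rose by 5.88 ± 0.10 (adjusted p = 1.08e-08), from 3.15, 3.49 and 3.58 to 8.92, 9.38 and 9.60. Selenoi, a phospholipid enzyme, rose by 2.43 ± 0.09, Tubb5, a beta-tubulin, by 2.36 ± 0.11, and Cdkn2c, the inhibitor p18, by 2.99 ± 0.13, and Trim34a fell by 2.39 ± 0.11 (adjusted p = 6.48e-07, 1.85e-06, 1.11e-06 and 2e-06). Their order was set by the SD, so the small spread is a description. The largest SDs among expressed genes were those of sex-linked genes (Xist and Eif2s3y), of copies of the U1 small nuclear RNA, which share reads, and of Cxcl2.

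The other libraries of the same mice place L in a series of months. In the 6 mice Kit stood at 0.85 to 1.82 at T0, and at T1, also without strand, at 3.39 to 3.83, so that no T1 level was below any T0 level. In the last monthly library before L it had reached 7.28 in 2684, 8.57 in 2690, 7.26 in 2708, 6.23 in 2718, 10.20 in 2719 and 9.02 in 2731. From there to L it differed most in 2718 (11.44 in L) and least in 2719 (9.89 in L). Cpa3 in those last monthly libraries stood at 7.84, 10.92, 8.61, 5.47, 11.55 and 10.96 in the same order of mice, so that 2718 was again the lowest before L and the highest in L. Mki67 did not follow: in the last monthly library it was at 10.26, 9.80, 9.92, 8.01, 8.41 and 9.83, and in L at 10.23, 8.53, 7.74, 6.56, 8.63 and 9.56. Ncr1 was at 2.64 to 4.28 at T1 and at -1.53 to 2.84 in the last monthly libraries. The monthly libraries from T2 on were prepared with strand and L without, so no test was run between them.

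**Figure D3:**
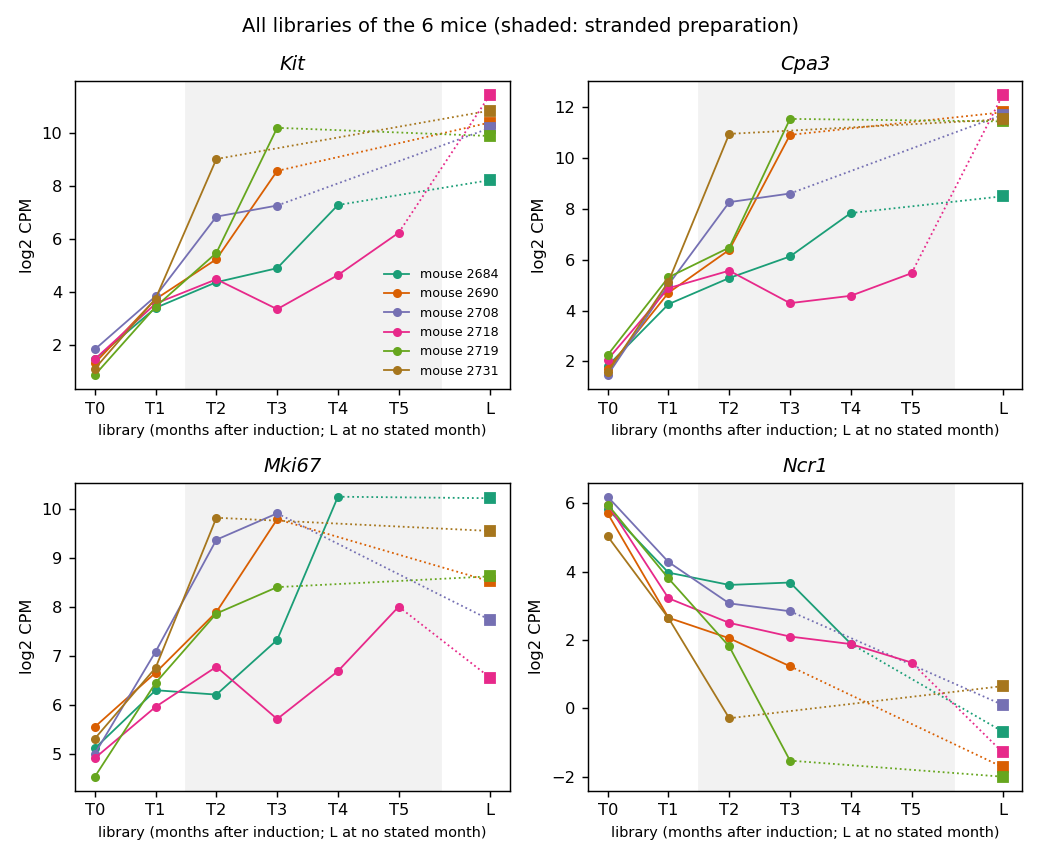
Log2 CPM of Kit, Cpa3, Mki67 and Ncr1 in every library of the 6 mice, by month after induction, with L as squares at the right, since its month is not stated. Dotted lines join the last monthly library to L, and the shaded months were prepared with strand. Kit and Cpa3 of mouse 2718 were low until month 5 and the highest of all mice in L.

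Control blood, from mice given the same injections, changed less. From T0 to T1 in 6 Ctrl mice 3501 genes rose (25.7%) and 1031 fell (7.58%), but 457 of 13607 (3.36%) changed by more than 1, against 5757 (42.3%) in leukemia. The median absolute change was 0.237 in Ctrl mice and 0.846 in leukemia. T1 of the Ctrl mice carried another batch label, 1 month after T0. When the change to L in the 6 CM mice was tested against the change to T1 in the 6 Ctrl mice, 3703 genes were higher (27.2%) and 4981 lower (36.6%), 8684 in all (63.8%). With T6 of the Ctrl mice, prepared with strand, in place of T1 the split was 4027 higher and 3206 lower. Kit differed by 8.90 ± 0.49, Cpa3 by 10.30 ± 0.55 and Il1rl1 by 10.17 ± 0.21 in this test. Relative to Ctrl mice 17 of 21 mast cell genes were higher, and 10 of these 21 had fallen in Ctrl mice from T0 to T1.

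Immediate early genes moved in both arms. Of 16 genes 11 fell and 1 rose in leukemia (median -1.99; 2 rose without 2718), and 9 fell in Ctrl mice (median -0.76). Fos, a component of AP-1, fell by 3.21 ± 0.24 (adjusted p = 1.61e-05) in leukemia, with a change of -2.31 ± 0.23 in Ctrl mice. Dusp1, a MAP kinase phosphatase, changed by -3.72 ± 0.36 (adjusted p = 6.11e-05) and -1.22 ± 0.20, and Jun, which did not pass in leukemia, by 0.36 ± 0.24 (adjusted p = 0.221) and -0.94 ± 0.18. Without mouse 2718 Jun passed at 0.60 (adjusted p = 0.0279). The chemokine gene Cxcl2 changed by -6.20 ± 1.27 (adjusted p = 0.00294) in leukemia and by -6.76 ± 0.50 in Ctrl mice, and the difference between the arms was 0.56 ± 1.52. NK genes also fell in part in Ctrl mice, 12 of 17, with a median of -0.97, and the difference between the arms had a median of -3.29.

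**Figure D4:**
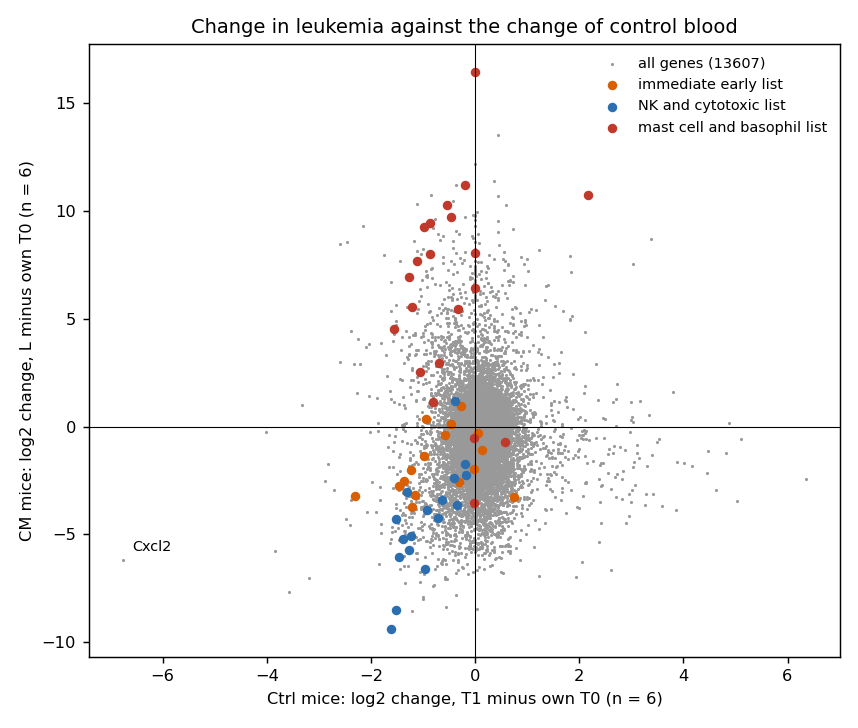
Change from T0 to T1 in 6 Ctrl mice (x axis, log2) against the change from T0 to L in 6 CM mice (y axis, log2) for 13607 genes, with 3 lists in colour. Leukemic changes reach beyond 10 where control changes mostly stay within 2, and Cxcl2 fell in both arms.

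Between the 3 female and the 3 male mice, as labelled, limma called 0 genes (0%) for a difference in the change to L, with 377 genes at an unadjusted p under 0.05. With 3 mice a side, a missed threshold does not show that the sexes were alike.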

How the data were processed

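The authors used STAR, featureCounts of Subread and edgeR with the build GRCm38, per the submitters' processing notes, with no versions given in the sources used here. The values deposited by the authors are log2 CPM with a prior of 0.25 reads, and the name of the deposited table states a filter of 5 CPM in 2 samples. Genes near 0 CPM in the 6 T0 libraries, such as Tph1, Wnt2, Hoxa10 and Car1, could pass it only through other libraries. For such genes the rise is a description. Undoing the scale returned whole reads in 100% of values (tolerance 0.01 reads), and 0 reads sit at about -6.30. Depth differed between libraries, and floors and intervals cover counting error only. The table of the training cohort was not used.

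Each L library was paired with T0 of its mouse through the mouse number in the labels. For the pairs, the correlation of the deviations from the group means was 0.0282 to 0.166. Limma 3.58.1 in R 4.3.3 was fitted to the 12 libraries with an intensity trend and the mouse as a replicate block, two-sided, with Benjamini-Hochberg adjustment over 13607 genes. All adjusted p in the text are from limma. The change to L was compared with the Ctrl change on differences per mouse, and likewise females with males. Scripts were tested on simulated data. Alternatives were other scalings, voom on whole reads, a prior of 2 reads, a filter on low levels, no trend, no block and leaving out mice.

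The mice, the 35 gene lists and the named genes were chosen with earlier results of these data known. Named genes are the 15 largest increases and 15 largest decreases (same direction in 6 mice, mean log2 CPM over 1), up to 4 called and 2 uncalled members of each list, fixed genes such as Kit, the 10 most and 10 least variable genes, and cell type markers. The text prints part of them. Symbols came from gene name tables (12612 of 13607 identifiers), and coordinates and promoters from RefSeq on GRCm38.p6. No 2 libraries of a group agreed within sampling noise (chi-square per gene at least 15.2). Each replicate is a separate mouse.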

Additional observations from a re-analysis of the deposited data

Results flagged for a closer look

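In 18 of 168 sets of 6 mice, 1 mouse lay apart from the other 5 by more than Dixon's criterion for 6 values, where chance flags about 1 in 20 sets. Mouse 2684 had the smallest change of Cpa3 (6.67, median of the 6 mice 10.0), of Hoxa9 (2.98, median 7.88) and of Hoxa10 (3.34, median 11), and the lowest median of the checkpoint list (-0.76, median 0.0822).

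Mouse 2718 had the largest change of Il1rl1 (10.5, median 9.54). It also had the lowest change of H3c2 (-0.296, median 5.28) and the lowest medians of the lists for histones (-1.53, median 1.6), ribosomal proteins (-0.979, median -0.275), heme synthesis (-0.682, median 0.769) and dendritic cells (-4.69, median -2.59). Its L library had 669 genes at 0 reads, where the median of the 6 was 156.

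Mouse 2731 had the smallest decreases of T cell genes, with a list median of -0.313 (median of the 6 mice -2.49), Lef1 at -0.102 (median -2.84) and Tcf7 at 0.581 (median -1.96). Its Y-linked gene Eif2s3y changed by -10.6 (median -0.0512). Its Xist was low for the female label in T0 and in L, and only T0 held the Y-linked Ddx3y.

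Single values apart from the rest were the change of Cdkn1a in mouse 2708 (1.17, median 2.82), that of Gata2 in mouse 2719 (4.51, median 5.62) and the change of the globin share in mouse 2690 (-12.1 percentage points of reads, median -1.84).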

How the results depend on the processing

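The counts of genes called in L minus own T0 stayed within 1.5 times of 8772 under every alternative fit, from 7456 with only genes of a mean log2 CPM above 1 to 9145 with no replicate block, that is, without pairing the libraries of a mouse. With a change beyond 1 as a further condition, an alternative added after the calls were seen, 5757 genes were called and 2246 rose. Leaving out 1 mouse gave 7667 to 8550 calls, 3836 to 4455 higher and 3831 to 4532 lower, and leaving out 2718 and 2731 together, also added later, gave 8239. The median change of all genes was -0.07 under median-ratio scaling and 0.01 under quantile normalization. The test against the Ctrl change gave 7233 to 9107 calls under other settings and 8136 to 8912 without 1 mouse, and the comparison of the sexes 0 in each. Without the block Slc4a1 lost its call, and no other gene named in the text did. Of these genes 1 to 6 changed side of the threshold or direction under any 1 setting, and the cause was not tested. Reversals fell on genes that were not called: Gp5 at -0.0368 under quantile normalization and at -0.47 to 0.40 without 1 mouse, Mecom at -0.45 to 1.31 without 1 mouse, and Ccr2 at 0.0522 without 2718 and 2731. The globin share differed by -4.44 to -2.23 percentage points without 1 mouse, with p = 0.0625 by the exact permutation test, the smallest that 5 pairs allow. Depth limits the genes with few reads at T0, such as Tph1 and Hoxa10, whose folds have wide intervals.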
